A study of Mus musculus with 8 samples.

Results

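Stag3, Smc1b, Sycp1, Tdrkh, Rnf17 and Tcam1 are germline genes: in the healthy animal their transcripts belong mainly to meiotic and later male germ cells, and each is treated here as a target of the repressor complex that Max forms with Mga. They were chosen by name, with earlier results of these data known, for higher levels in libraries with reduced Max. They are 6 of the 15681 genes in the deposited table, and all 6 passed a filter of at least 1 RPM (reads per 1000000 reads) in at least 2 libraries, which left 12441 genes for testing. Smc1b was below 1 RPM in all 4 libraries that retain Max, so it passed that filter through the libraries with reduced Max.

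RNA sequencing was done on mature B lymphocytes sorted from mouse spleen, cultured with lipopolysaccharide (LPS, a bacterial activator of B cells) at 20 µg/ml and the cytokine IL-4 at 20 ng/ml, and harvested after 72 h. The mice were 8 to 10 weeks old. The 4 groups have 2 libraries each: a heterozygous control (HET), Myc deficient (MYC_KO), Max deficient (MAX_KO) and deficient in both (DKO). The labels do not name the allele that is heterozygous in the control, the alleles deleted or the Cre driver, and do not say that the 2 libraries of a group come from separate mice, so a p-value here measures the spread between libraries. Every group received the same activation, so none is a resting control. Below, HET and MYC_KO are the libraries that retain Max and MAX_KO and DKO those with reduced Max.

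The labels of 2 of the 8 libraries contradict themselves, which bears on every result. Groups were taken from the sample titles, which match the column names of the table. The library called DKO replicate 1 below is described elsewhere in its own labels as MYC_KO, and the one called MYC_KO replicate 2 is described as DKO. Max, the partner without which Myc binds DNA poorly, was at 55 and 54.5 RPM in HET, 70.4 and 59.8 in MYC_KO, 16.4 and 15.5 in MAX_KO and 28.6 and 31.2 in DKO, so both disputed libraries lie beside the library that shares their title. Max RNA was 1.45 ± 0.0826 (log2, SE) lower with reduced Max (limma, Benjamini-Hochberg adjusted p = 0.000349), and the call was lost when the descriptions set the groups (adjusted p = 0.0537). Myc was at 111 and 116 RPM in HET, 48.3 and 55.7 in MYC_KO, 192 and 176 in MAX_KO and 38.7 and 55.3 in DKO. Neither transcript was at 0 in its knockout; which exons were deleted is not given, so RNA that remains is no measure of functional protein. Values for the 6 libraries whose labels do not conflict, or for groups set by the descriptions, are given where they change a call or turn a direction.

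Library depth was 14880000 to 17910000 estimated reads. Cd79a, a component of the B cell receptor, was at 878 to 1160 RPM over the 8 libraries. Other B cell genes moved: Pax5, a B cell transcription factor, was at 382 and 375 RPM in HET and 979 to 1410 in the other libraries, and Pax5, Ms4a1 and Ebf1 were higher with reduced Max by 0.78, 0.55 and 0.53 on the log2 scale (limma adjusted p = 0.00659, 0.00874 and 0.00949). Plasma cell genes moved too, with a summed level of 6 markers of 1210 to 1260 RPM in HET, 953 to 960 in MYC_KO, 574 to 658 in MAX_KO and 799 to 1100 in DKO. Of these, Jchain, which links antibody units, and Xbp1, a secretory transcription factor, were lower with reduced Max, with differences of -1.59 and -0.74 (limma adjusted p = 0.00226 and 0.005). In DKO, however, Xbp1 was at 375 and 417 RPM beside 431 and 364 in MYC_KO, and Jchain at 137 and 261 beside 281 and 260. The other 3 tested markers, Irf4, Sdc1 and Prdm1, did not pass. Irf4 was at 241 to 341 RPM with reduced Max and 195 to 245 where Max is retained. Sdc1 was at 2.94 and 3.02 RPM in MAX_KO and 8.83 and 16.5 in DKO, beside 5.94 to 14.9 where Max is retained. Tnfrsf17 was at or near 0 in every library. The summed level of 8 T cell markers, all in the table, was 37.5 to 43.4 RPM in HET, 120 to 154 in MYC_KO, 75.9 to 92 in MAX_KO and 80.7 to 124 in DKO. Of 9 germ cell and spermatid markers 4 were in the table, and their summed level was 1.37 to 5.1 RPM where Max is retained and 2.35 to 4.55 where it is reduced. Ddx4, a germ cell RNA helicase, did not exceed 0.447 RPM in any library, and Dazl, a germ cell RNA-binding protein, did not exceed 0.219 RPM. The part of these shifts in the levels of the 6 genes was not tested.

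Max pairs with Myc on E-box DNA to activate genes, and it also pairs with Mga inside PRC1.6, a variant Polycomb complex that holds L3mbtl2, Pcgf6 and E2f6 among its subunits. PRC1.6 is known for keeping meiotic and germline genes silent outside the germline, best studied in embryonic stem cells, and it reaches promoters through the E-box contact of Max and Mga and the E2F sites bound by E2f6. The 6 genes cover several steps of germ cell biology. Stag3 and Smc1b are subunits of the cohesin ring particular to meiosis, Sycp1 builds the transverse filaments that zip paired chromosomes together, Tdrkh and Rnf17 are Tudor-domain proteins of germ cell RNA biology, and Tcam1 is a testicular cell adhesion molecule.

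The start regions of 4 of the 6 genes are shown because each holds a motif tied to Max dimers or to E2F. The sequences are from RefSeq on build GRCm38.p6, on the strand of the gene, from 200 bases before the annotated start to 30 bases from it. Capitals mark the E-box CACGTG and the E2F core TCCCGC, and positions are counted from the annotated start, whose first base is position 1. The Stag3 region is chr5:138280309-138280538 on the plus strand, with an E-box that begins 170 bases before the start and an E2F core 2 bases before it. The Smc1b region is chr15:85131928-85132157 on the minus strand, with an E2F core 47 bases before the start. The Sycp1 region is chr3:102936071-102936300 on the minus strand, with an E-box 94 bases before the start and an E2F core at position 3. The Tcam1 region is chr11:106276522-106276751 on the plus strand, with an E-box 39 bases before this start, which is position 12 of a second annotated start.
Stag3: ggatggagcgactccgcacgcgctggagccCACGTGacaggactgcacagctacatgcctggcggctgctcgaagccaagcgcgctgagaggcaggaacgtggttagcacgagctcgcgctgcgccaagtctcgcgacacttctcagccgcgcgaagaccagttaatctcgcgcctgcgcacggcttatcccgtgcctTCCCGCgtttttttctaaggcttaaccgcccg
Smc1b: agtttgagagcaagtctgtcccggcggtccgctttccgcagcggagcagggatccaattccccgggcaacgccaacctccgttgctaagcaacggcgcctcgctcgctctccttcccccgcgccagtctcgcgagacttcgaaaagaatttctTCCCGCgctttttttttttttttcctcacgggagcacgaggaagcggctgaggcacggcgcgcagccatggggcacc
Sycp1: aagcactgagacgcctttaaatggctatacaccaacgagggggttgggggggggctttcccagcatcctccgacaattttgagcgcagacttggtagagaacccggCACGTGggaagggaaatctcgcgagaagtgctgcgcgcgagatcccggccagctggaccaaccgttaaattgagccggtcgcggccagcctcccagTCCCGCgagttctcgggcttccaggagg
Tcam1: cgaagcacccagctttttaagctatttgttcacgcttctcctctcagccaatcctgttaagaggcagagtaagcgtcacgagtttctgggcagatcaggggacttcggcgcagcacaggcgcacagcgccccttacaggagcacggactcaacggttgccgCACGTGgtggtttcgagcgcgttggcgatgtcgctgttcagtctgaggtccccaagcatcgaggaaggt
The search covered 250 bases before to 50 bases after the start, on both strands, in 5 of the 6 genes (all but Rnf17). It found the E-box in 3 of the 5 genes and the E2F core in 3 of the 5. Tdrkh held neither, and none of the 5 held the T-box core GGTGTGA, the kind of site bound by the T-box of Mga. Over all 27025 genes with such a window, 8.09% held the E-box, 22% the E2F core and 4.6% the T-box core. Among 62 other germline genes with a window, 35.5% held the E-box and 46.8% the E2F core. A match is a description of letters, not evidence of binding.

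The plot of levels by library shows the size of the difference that chose the genes. In 5 of the 6 genes, all but Sycp1, every library with reduced Max lay above every library that retains Max, as did 4.46% of all genes tested. This pattern was the reason for choosing the genes, so it is given as a description without a test. On the log2 scale, the mean of MAX_KO and DKO minus the mean of HET and MYC_KO was 3.27 for Stag3, 3.2 for Smc1b, 2.4 for Rnf17, 2.15 for Tcam1, 2.12 for Sycp1 and 1.27 for Tdrkh. Their median was 2.28 beside 0.02 over all genes tested, and was 1.41 when the descriptions set the groups. In bulk RNA, fewer cells with a transcript and less of it per cell cannot be told apart.

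**Figure D1:**
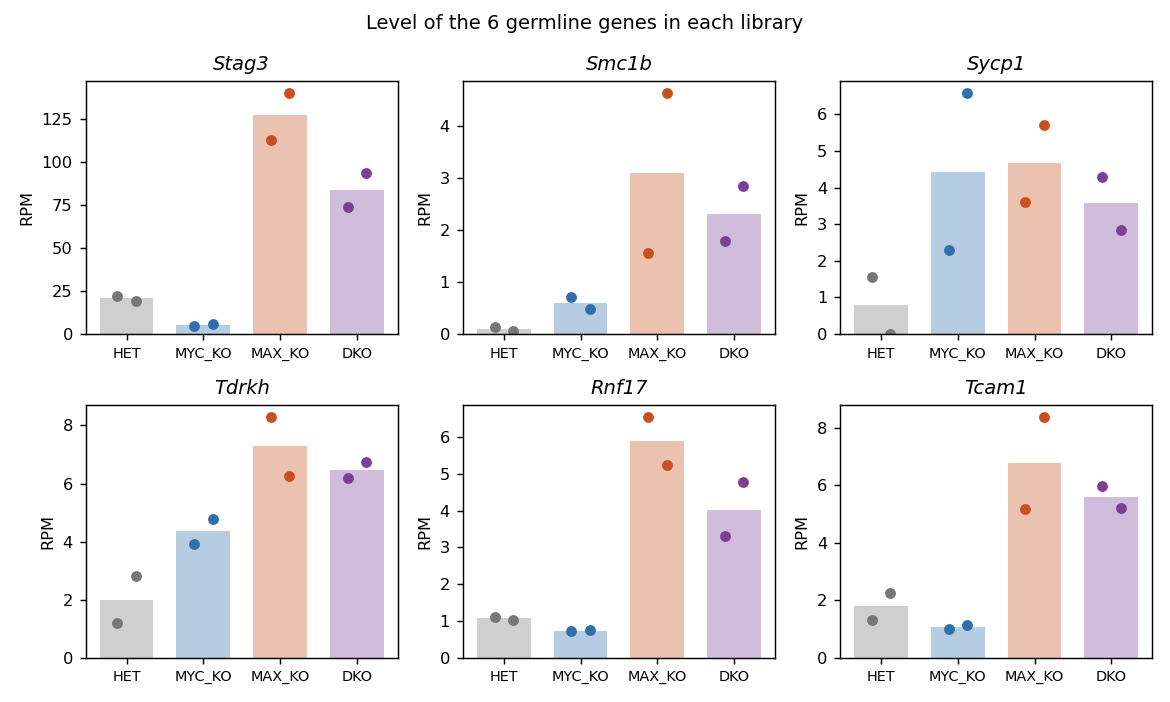
Level of each of the 6 genes in RPM (vertical axis, a separate scale in each panel) in the 4 groups; points are the 2 libraries of a group and bars their mean. Stag3 reaches 113 and 140 RPM in MAX_KO, while the other 5 genes stay below 10 RPM in every library, and Sycp1 alone has a MYC_KO library above all others.

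The cohesin ring holds sister chromatids together, and in meiosis the mitotic subunits are partly replaced by germline versions. Stag3 (ENSMUSG00000036928, chr5:138280240-138312393, plus strand, build GRCm38) is the germline STAG subunit. It was at 22.2 and 19.4 RPM in HET, 4.83 and 6.04 in MYC_KO, 113 and 140 in MAX_KO and 73.9 and 93.4 in DKO. The groups did not overlap, and the order of means was MAX_KO, DKO, HET and MYC_KO: 127 ± 19.3, 83.7 ± 13.8, 20.8 ± 1.95 and 5.44 ± 0.854 RPM (SD, n = 2 each). Stag3 was thus the one member with a clear level in the control. The ratio of means was 6.1 for MAX_KO over HET and 15.4 for DKO over MYC_KO. Among the 12441 genes tested, Stag3 ranked 11 by its log2 difference between reduced and retained Max. That comparison chose the gene, so the rank is a description only.

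Smc1b (ENSMUSG00000022432, chr15:85064689-85131964, minus strand) is the germline SMC subunit and partners Smc3 in the meiotic ring. It was at 0.124 and 0.0606 RPM in HET, 0.718 and 0.481 in MYC_KO, 1.56 and 4.64 in MAX_KO and 1.79 and 2.85 in DKO. In estimated reads these were 2 and 1, 11 and 9, 28 and 83, and 32 and 52. The MAX_KO and DKO libraries overlapped, and all 4 stood above the others. The read ratio was 33.6 for MAX_KO over HET and 25.2 for DKO over HET, given without an interval because the libraries with reduced Max chose the gene. It was 6.38 for MYC_KO over HET (95% interval 1.89 to 33.5). That interval covers counting error only, with the reads of the 2 libraries of a group pooled. Smc1b therefore reached its level with reduced Max from close to none, at a depth where HET gave 3 reads in all.

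Levels per kilobase of exon set the germline subunits against their mitotic counterparts. Stag3 was at 3.63 RPM per kb in HET, 0.948 in MYC_KO, 22.1 in MAX_KO and 14.6 in DKO, while Stag2, the more abundant of the 2 mitotic STAG subunits, was at 12.3, 26.8, 23.6 and 24.1. Stag1, the other mitotic version, was at 4.29, 8.73, 8.04 and 8.59 RPM per kb. Per kilobase, mean Stag3 was thus above mean Stag1 in both groups with reduced Max, and close to mean Stag2 in MAX_KO. The lengths are all annotated exons of a gene merged: 5733 bases for Stag3, 11781 for Stag1 and 8273 for Stag2. Without this division, mean Stag1 was above mean Stag3 in DKO, at 101 and 83.7 RPM. In MAX_KO the means were then 127 for Stag3, 94.8 for Stag1 and 196 for Stag2. Smc1b was at most 0.765 RPM per kb (MAX_KO), against 41.7 to 54.2 for its mitotic counterpart Smc1a. Rec8 and Rad21l, the germline kleisins that close the meiotic ring, were searched for and had no row in the table, so no level is given for either.

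The 5 mitotic cohesin genes tested were all higher with reduced Max, by less than Stag3 or Smc1b, and 12.6% of all genes were. The log2 differences were 0.44 ± 0.0602 for Stag1 (SE, limma adjusted p = 0.00375), 0.39 ± 0.0613 for Stag2 (adjusted p = 0.0054), 0.26 ± 0.056 for Smc1a (adjusted p = 0.0158), 0.24 ± 0.0497 for Rad21 (adjusted p = 0.0147) and 0.22 ± 0.0628 for Smc3 (adjusted p = 0.0438). For Stag1 and Stag2 the HET libraries set this difference: both also rose from HET to MYC_KO, by 1.03 ± 0.0852 and 1.12 ± 0.0867 (adjusted p = 8.41e-05 and 6.9e-05), and their DKO minus MYC_KO differences were -0.03 and -0.15. The Stag1 and Stag2 calls held in all 19 alternatives at the 0.05 threshold. Rad21 and Smc3 also differed mainly between MAX_KO and HET, with ratios of means of 1.36 and 1.29. For DKO over MYC_KO these ratios were 1.02 and 1.05. For Smc1a the ratio was 1.28 for MAX_KO over HET and 1.13 for DKO over MYC_KO. Smc1a lost its call without HET replicate 1, HET replicate 2 or DKO replicate 1 (adjusted p = 0.0582, 0.061 and 0.056), and Rad21 without HET replicate 1, HET replicate 2 or DKO replicate 2 (0.0577, 0.056 and 0.0513). Among the 6 undisputed libraries both calls were lost too (adjusted p = 0.0945 and 0.052), and that of Smc1a with groups from the descriptions (0.234). Smc3 lost its call in 15 of 19 alternatives, among them without either library of HET or DKO, either MAX_KO library or MYC_KO replicate 2 (adjusted p 0.083 to 0.144), among the 6 undisputed libraries (0.188) and with groups from the descriptions (0.175).

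Sycp1 (ENSMUSG00000027855, chr3:102818499-102936100, minus strand) goes against the description of the set as genes raised with reduced Max. It was at 1.56 and 0 RPM in HET, 2.29 and 6.58 in MYC_KO, 3.61 and 5.7 in MAX_KO and 4.3 and 2.85 in DKO. The highest of the 8 libraries was a MYC_KO library, and the MYC_KO range covered that of both groups with reduced Max. MAX_KO minus HET was 4.38 on the log2 scale, but DKO minus MYC_KO was -0.15 ± 1.5 (SE). The pooled difference of 2.12 rested on the HET libraries: it was 3.54 without HET replicate 1 and 0.69 without HET replicate 2, the library with no read. Among the 6 genes, Sycp1 was the one whose DKO and MYC_KO means were in the reverse order, at 3.58 ± 1.03 and 4.43 ± 3.04 RPM (SD, n = 2 each).

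Tdrkh (ENSMUSG00000041912, chr3:94413273-94434668, plus strand) sits on mitochondria and helps trim the 3′ ends of piRNAs, the small RNAs that silence transposons in germ cells. It was at 1.18 and 2.8 RPM in HET, 3.93 and 4.77 in MYC_KO, 8.3 and 6.26 in MAX_KO and 6.2 and 6.74 in DKO. The 2 groups with reduced Max overlapped, and MYC_KO lay between them and HET without overlapping either. MAX_KO minus HET was 1.96 and DKO minus MYC_KO was 0.58, the smallest positive DKO minus MYC_KO difference of the 6 genes. In the annotation the end of Tdrkh overlaps Oaz3 on the opposite strand; Oaz3 was below 1 RPM in every library, and whether reads were counted by strand is not given in the sources used here.

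Rnf17 (ENSMUSG00000000365, chr14:56402581-56525032, plus strand) is a RING and Tudor-domain protein of germ cell granules, needed for spermatid maturation. It was at 1.12 and 1.03 RPM in HET, 0.718 and 0.748 in MYC_KO, 6.56 and 5.25 in MAX_KO and 3.3 and 4.77 in DKO. HET and MYC_KO were low and close, and no library with reduced Max came below 3.3 RPM. Its MAX_KO minus HET and DKO minus MYC_KO differences were 2.41 and 2.39, the most even pair of the 6 genes.

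Tcam1 (ENSMUSG00000020712, chr11:106276672-106288745, plus strand) was at 1.31 and 2.24 RPM in HET, 0.979 and 1.12 in MYC_KO, 5.17 and 8.38 in MAX_KO and 5.98 and 5.21 in DKO. The MAX_KO range covered that of DKO, and the highest library that retains Max was HET replicate 2. Its MAX_KO minus HET difference was 1.92 and its DKO minus MYC_KO difference 2.38. Rnf17 and Tcam1 thus shared a pattern of low levels in both groups that retain Max, and their differences with Max loss were within 0.5 of each other with and without Myc (log2).

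Comparing MYC_KO with HET asks what the loss of Myc did to these genes while Max remained, a comparison that the choice of genes did not use. Of the 6 genes, 2 rose and 1 fell (limma, adjusted p under 0.05), where 24.0% of all genes tested rose and 21.4% fell. The 33.3% that rose and 16.7% that fell are near those shares. Stag3 fell by 1.93 ± 0.175 on the log2 scale (SE, adjusted p = 0.000117), a ratio of 3.82 between the HET and MYC_KO means. Among the 6 libraries with undisputed labels it fell by 2.09 (adjusted p = 0.000955), with 1 library left in MYC_KO and the spread pooled over groups. When the descriptions set the groups the difference was -0.13 (adjusted p = 0.948).

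Smc1b rose by 2.38 ± 0.652 (SE, limma adjusted p = 0.0184), on 3 reads in HET and 20 in MYC_KO. The call was lost without HET replicate 2 (adjusted p = 0.0924), without MYC_KO replicate 1 (0.0824) and on the log2(RPM + 1) scale (0.247). Tdrkh rose by 1.23 ± 0.391 (limma adjusted p = 0.0324). That call was lost among the 6 undisputed libraries (adjusted p = 0.147), without HET replicate 1 (0.181), and without MYC_KO replicate 1 (0.0648) or replicate 2 (0.123). Sycp1 differed by 4.16 ± 1.5 (adjusted p = 0.0521). It passed on the log2(RPM + 1) scale (adjusted p = 0.029), with quantile normalization (0.0465), with the same total per library (0.0453) and without HET replicate 1, where HET was a single library with no read (adjusted p = 0.00189). For Rnf17 the difference was -0.54 ± 0.332 (adjusted p = 0.22) and for Tcam1 -0.69 ± 0.368 (adjusted p = 0.157).

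The same comparison moved markers of other cell types. All 8 T cell markers and all 3 tested NK cell markers were higher in MYC_KO than in HET, as were 24.0% of all genes tested. No T cell marker was at 0 in MYC_KO. Cd3e, a T cell receptor component, was at 0 and 0.243 RPM in HET and 3.33 and 1.92 in MYC_KO. The NK cell sum was 4.61 to 5.4 RPM in HET and 20.8 to 29.7 in MYC_KO, with Ncr1 and Klrk1 at 0 in both HET libraries. Both tested myeloid markers, Adgre1 and Itgam, were also higher in MYC_KO, and the sum of the 4 myeloid markers in the table was 2.44 to 3.39 RPM in HET and 19.7 to 29.9 in MYC_KO, with Csf1r at 0 in both MYC_KO libraries. The part of these cells in the Smc1b, Tdrkh and Stag3 differences was not tested.

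Comparing DKO with MAX_KO asks what the loss of Myc did where Max was already reduced. None of the 6 genes passed limma's adjusted p under 0.05, as for all but 0.0402% of all genes tested (5 genes), and 1 of the 6, Stag3, had an unadjusted p under 0.05. All 6 differences were negative. That of Stag3 was -0.6 ± 0.175 (SE, adjusted p = 0.543), with both DKO libraries below both MAX_KO libraries. The others were -0.25 ± 0.652 for Smc1b, -0.36 ± 1.5 for Sycp1, -0.16 ± 0.391 for Tdrkh, -0.55 ± 0.332 for Rnf17 and -0.24 ± 0.368 for Tcam1, none of them with an unadjusted p under 0.05. With standard errors of this size, the values do not show that DKO and MAX_KO had equal levels. Max RNA itself was higher in DKO than in MAX_KO by 0.91 ± 0.117 (adjusted p = 0.0968), and its part in these differences was not tested.

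**Figure D2:**
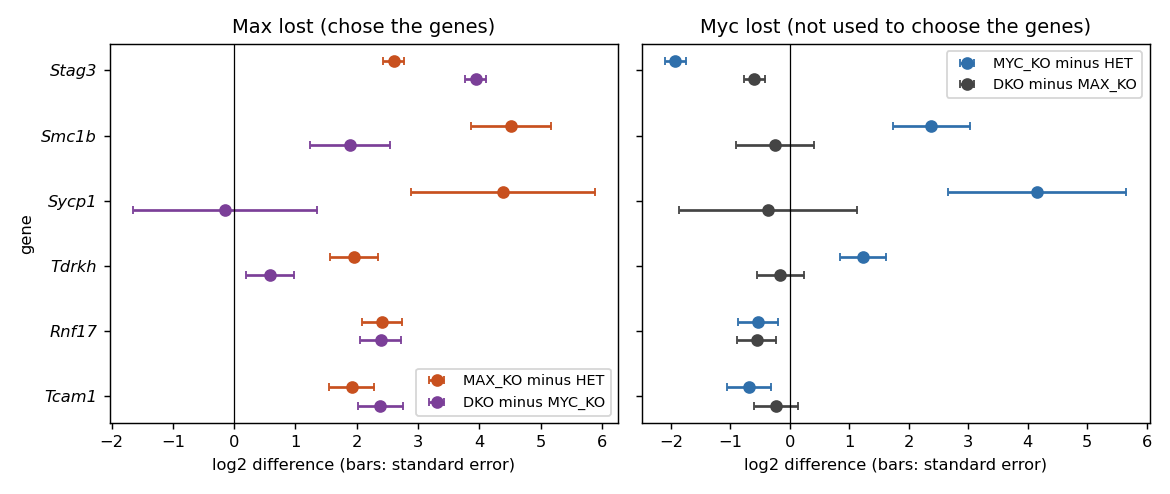
Log2 difference of each of the 6 genes (horizontal axis) with its standard error as a bar, for the 2 comparisons that remove Max (left) and the 2 that remove Myc (right). Stag3 lies at -1.93 for MYC_KO minus HET while Smc1b, Sycp1 and Tdrkh lie above 1 there, and all 6 points for DKO minus MAX_KO lie below 0.

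Whether the difference with Max loss depended on Myc was tested as the interaction, DKO minus MYC_KO less MAX_KO minus HET. It was positive and passed for Stag3, at 1.33 ± 0.248 (SE, limma adjusted p = 0.00661), so that the Stag3 difference with Max loss was larger where Myc was deficient too. It passed for 1 of 6 genes, where 12.4% of all genes tested had a positive and 15.0% a negative call. Among the 6 undisputed libraries it was 1.66 (adjusted p = 0.00992), and with groups from the descriptions it turned to -2.27 (adjusted p = 0.429). The Stag3 values show where it came from: MYC_KO was lower than HET while DKO and MAX_KO differed less.

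For Smc1b, Sycp1 and Tdrkh the interaction was negative and did not pass. It was -2.62 ± 0.922 for Smc1b (SE, limma adjusted p = 0.0671), -4.53 ± 2.13 for Sycp1 (0.149) and -1.39 ± 0.553 for Tdrkh (0.0969). Leaving out a single library brought a call in each: MAX_KO replicate 1 for Smc1b (adjusted p = 0.0313), HET replicate 1 for Sycp1 (0.00981) and HET replicate 2 for Tdrkh (0.023). With groups from the descriptions the Smc1b interaction also passed (adjusted p = 0.0453). It was -0.03 ± 0.469 for Rnf17 (adjusted p = 0.975) and 0.46 ± 0.52 for Tcam1 (adjusted p = 0.55), so no dependence on Myc was detectable for either at this replication.

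Other genes of meiosis and the piRNA pathway, listed from textbook knowledge, show whether the 6 genes stand for their class. Of 74 listed genes, 37 were in the table and 23 passed the filter. With reduced Max, 7 of the 23 (30.4%) were higher and 2 (8.7%) lower by limma, beside 12.6% and 7.98% of all genes tested, and 14 did not pass. Their median difference was -0.05, beside 0.02 over all genes and 2.28 for the 6. Between 5 and 8 were higher over the alternatives, but 4 of the 23 (Meiosin, Boll, Pld6 and Tex11) were below 1 RPM in every library that retains Max, so they entered the test through the libraries with reduced Max. Of the other 19, 4 (21.1%) were higher and 2 (10.5%) lower.

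By role, the genes of meiotic entry and germ cell RNA control had 3 tested members, Meiosin, Boll and Ythdc2, all called higher, beside 12.6% of all genes tested. Meiosin and Boll entered the test through the libraries with reduced Max, so this count is no evidence about the role as a class. Meiosin (ENSMUSG00000085601), partner of Stra8 in switching on the meiotic program, had the largest difference of all 23. It was at 0.124 and 0.0606 RPM in HET, 0 and 0.16 in MYC_KO, 23.9 and 30.7 in MAX_KO and 14.6 and 15.2 in DKO. The gene was therefore close to undetected where Max is retained and second only to Stag3, among it and the 6, where Max is reduced. The read ratio was 296 for MAX_KO over HET (95% interval 101 to 1440), and 169 for DKO over MYC_KO (57.6 to 823). These intervals cover counting error only. Its log2 difference was 7.71 ± 0.526 (SE), with a limma adjusted p of 0.00062 in the fit of all 15681 genes without the filter on low values, and the call was lost when the descriptions set the groups (adjusted p = 0.118).

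Boll, a germline RNA-binding protein of the Dazl family, was at 0.249 and 0.243 RPM in HET, 0.457 and 0.374 in MYC_KO, 1.5 and 2.18 in MAX_KO and 1.4 and 1.37 in DKO. All libraries with reduced Max were above the rest, with a difference of 2.2 ± 0.341 (SE, limma adjusted p = 0.00487 without the filter on low values; 0.114 with the filter and groups from the descriptions). Ythdc2, an RNA helicase that germ cells need to enter meiosis and that other tissues also express, rose by 0.36 ± 0.0694 (adjusted p = 0.0114). Its groups overlapped, at 22.8 and 22.5 RPM in HET and 37.3 to 43.3 in all other libraries, and the call was lost among the 6 undisputed libraries (adjusted p = 0.0577).

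Among 5 tested piRNA genes, 1 was higher and 1 lower (20% each), where 12.6% of all genes tested were higher and 7.98% lower. The 1 called higher, Pld6, entered the test through the libraries with reduced Max, so the higher count is no evidence about the pathway as a class. Pld6, the mitochondrial nuclease that cuts piRNA precursors, was at 0.809 and 0.303 RPM in HET, 0.392 and 0.428 in MYC_KO, 2.44 and 3.07 in MAX_KO and 2.24 and 1.7 in DKO. It was higher by 2.28 ± 0.374 (SE, limma adjusted p = 0.00629 without the filter on low values; 0.237 with the filter and groups from the descriptions), and the libraries with reduced Max all lay above the others. Pnldc1, the trimming enzyme that works with Tdrkh, went the other way, with a difference of -1.39 ± 0.386 (adjusted p = 0.0388), with 0.748 to 1.09 RPM where Max is retained and 0.219 to 0.444 where it is reduced. Its call was lost when any 1 of the 8 libraries was left out (adjusted p 0.0528 to 0.112), among the 6 undisputed libraries (0.0613) and with groups from the descriptions (0.204).

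Of 12 tested genes of meiotic recombination, 2 (16.7%) were higher and 1 (8.33%) lower, near the 12.6% and 7.98% of all genes tested. Zcwpw1, a reader of the histone marks that Prdm9 writes, was at 35.8 to 49.9 RPM where Max is retained and 53.9 to 81.6 where it is reduced, higher by 0.6 ± 0.109 (SE, limma adjusted p = 0.00891). Iho1, needed to form meiotic double-strand breaks, was higher by 1.59 ± 0.368 (adjusted p = 0.0211), from 0.243 to 1.41 RPM to between 1.45 and 2.67. The Iho1 call was lost without HET, MYC_KO, MAX_KO or DKO replicate 2 (adjusted p = 0.0575, 0.052, 0.0548 and 0.0625) among the 6 undisputed libraries (0.0726) and with groups from the descriptions (0.0515). Prdm9, the methyltransferase that places recombination hotspots, was at 23.2 to 27.1 RPM where Max is retained and 17.8 to 22.7 where it is reduced. The difference was -0.4 ± 0.0971 (adjusted p = 0.0251), and its call was lost when any library but MAX_KO replicate 2 was left out (adjusted p 0.0504 to 0.0915), among the 6 undisputed libraries (0.0923) and with groups from the descriptions, where the difference was -0.11 (0.654).

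Of the synaptonemal complex genes beside Sycp1, 2 were tested and 1 was higher, as were 12.6% of all genes tested. Syce2, a central element protein, was higher by 0.62 ± 0.0996 (SE, limma adjusted p = 0.006). It was at 35.9 and 36.2 RPM in HET, 18.3 and 17.2 in MYC_KO, 48.9 and 39.9 in MAX_KO and 37.4 and 31.1 in DKO. HET overlapped the DKO libraries, and the lowest levels were those of MYC_KO, as for Stag3. Syce2 fell from HET to MYC_KO by 1.02 ± 0.141 (adjusted p = 0.000768). With groups from the descriptions neither Syce2 call held (adjusted p = 0.885 and 0.325).

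**Figure D3:**
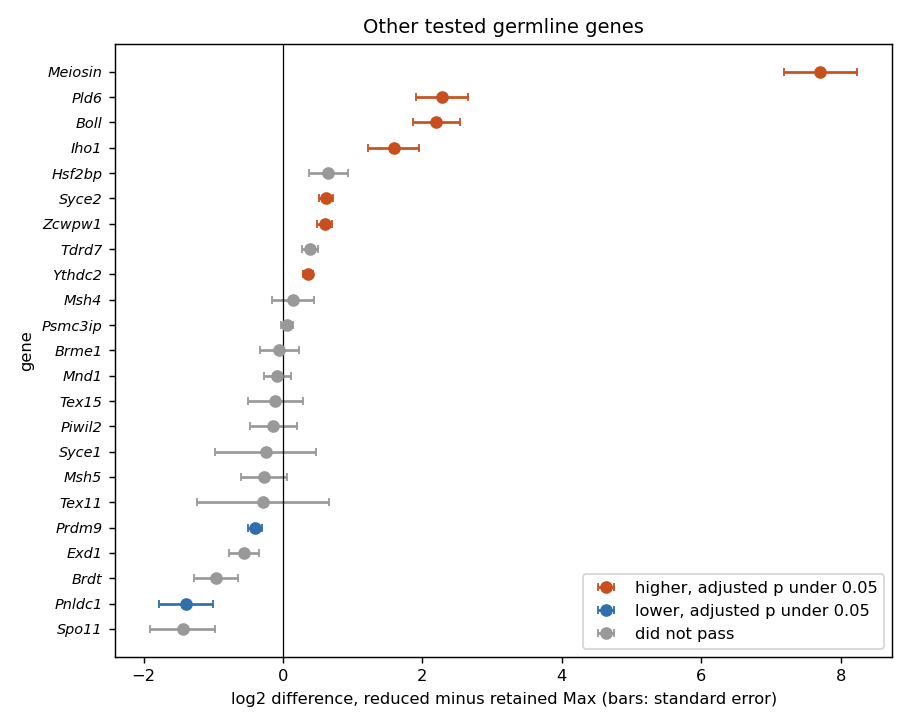
Log2 difference between reduced and retained Max (horizontal axis) with its standard error for the 23 other germline genes tested. Meiosin stands at 7.71, Pld6, Boll and Iho1 lie between 1.59 and 2.28, and the lowest 2 genes are Spo11, which did not pass, and Pnldc1, which did.

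The repressor complex itself was measured through its subunits, of which 16 were tested: 4 were higher with reduced Max and 1, Max, was lower, beside 12.6% higher and 7.98% lower of all genes tested. Mga, the DNA-binding partner of Max in PRC1.6, was at 64.2 and 70.5 RPM in HET, 141 and 136 in MYC_KO, 178 and 210 in MAX_KO and 185 and 200 in DKO. It was higher with reduced Max by 1.0 ± 0.0728 (SE, limma adjusted p = 0.000848), and higher in MYC_KO than in HET by 1.04 ± 0.103 (adjusted p = 0.000169). L3mbtl2, the histone-binding subunit, was higher by 0.25 ± 0.0663 (adjusted p = 0.0319), a call lost in 12 of 19 alternatives, among them without either HET or DKO library, MYC_KO replicate 1 or MAX_KO replicate 1 (adjusted p 0.0554 to 0.115), among the 6 undisputed libraries (0.0957) and with groups from the descriptions (0.547). Mean L3mbtl2 was 112 RPM in HET, 90.1 in MYC_KO, 127 in MAX_KO and 113 in DKO. The other subunits called were Tfdp2, an E2F partner, at 0.54 ± 0.139 (adjusted p = 0.0307), and Rybp, a Ring1-binding subunit, at 0.3 ± 0.0848 (adjusted p = 0.0423). Their ratios of means were 1.86 and 1.49 for MAX_KO over HET, but 1.12 and 1.01 for DKO over MYC_KO. The Tfdp2 call was lost without either HET library, MYC_KO replicate 1, MAX_KO replicate 2 or DKO replicate 2 (adjusted p 0.0664 to 0.115). The Rybp call was lost without any 1 library but MYC_KO replicate 1 (adjusted p 0.0525 to 0.126), among the 6 undisputed libraries (0.201) and with groups from the descriptions (0.0875). The differences for Pcgf6 and E2f6 were 0.18 ± 0.133 (adjusted p = 0.372) and 0.04 ± 0.0896 (adjusted p = 0.803).

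Genes next to the 6 on the chromosome were compared in the same way. Of the 12 nearest protein-coding neighbours in the table, 10 were tested, 2 were higher with reduced Max by limma (Gpc2 and Gzmb) and 8 did not pass. Of all genes tested, 12.6% were higher, so the count does not show that the differences extended to neighbours. Gpc2, which encodes a cell-surface proteoglycan, begins 234 bases from Stag3 on the opposite strand. It was at 5.42 and 4.85 RPM in HET, 7.31 and 8.18 in MYC_KO, 15.7 and 13.4 in MAX_KO and 14.4 and 10.9 in DKO, with all 4 libraries of reduced Max above the rest. The difference was 1.09 ± 0.144 (SE, adjusted p = 0.00346; 0.0577 with groups from the descriptions). Gzmb, a protease of cytotoxic cells 140 kb from Rnf17, differed by 1.9 ± 0.289 (adjusted p = 0.00498) but was highest in MYC_KO, at 127 and 79.7 RPM against 2.18 and 1.21 in HET, a pattern like that of the T and NK cell markers and unlike that of Rnf17.

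The genes most like the 6 across the 8 libraries were found from the root mean square distance between each gene's log2 values, centred on their mean, and the mean centred profile of the 6. Of 11217 genes compared, the nearest were Boll (0.27), Pld6 (0.42), Obox8 (0.48), Btn2a2 (0.49) and Pogk (0.52). The first 2 are on the germline list, and Obox8 belongs to a family of oocyte homeobox genes. Boll, Pld6, Obox8 and Btn2a2 were below 1 RPM in every library that retains Max, so they entered the comparison through the libraries with reduced Max. The profile also carries the difference that chose the 6, so these names are a description only. Pogk, a nuclear protein with a KRAB domain, was the one of the 5 with a high level: 29.5 and 30.8 RPM in HET, 42.2 and 44.1 in MYC_KO, 113 and 115 in MAX_KO and 92.6 and 90 in DKO. Measured against the mean of the other 5, the 6 genes were at 0.65 (Rnf17), 0.81 (Tcam1), 0.95 (Smc1b), 0.97 (Tdrkh), 1.28 (Stag3) and 2.11 (Sycp1). Sycp1 was thus farther from the other members than any of them.

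**Figure D4:**
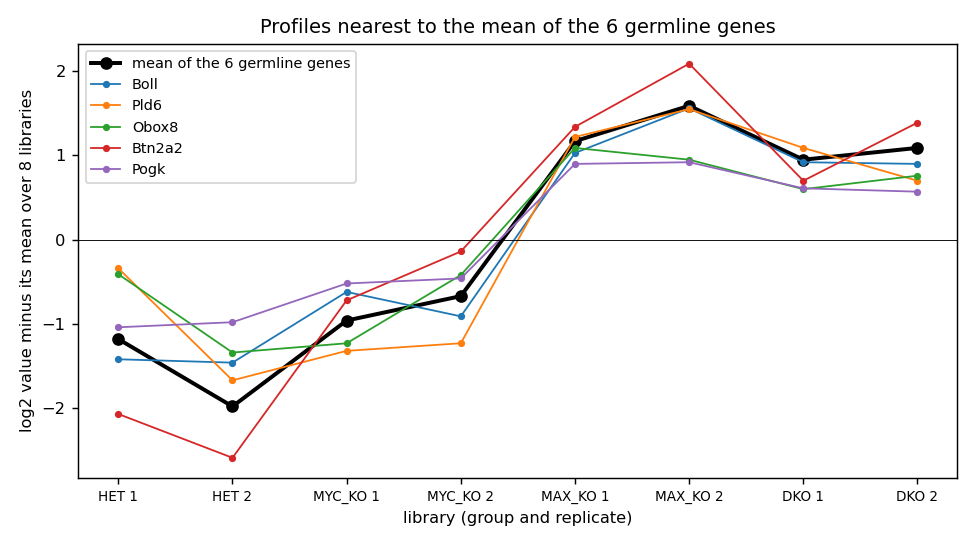
Log2 value minus its mean over the 8 libraries (vertical axis) in each library for the mean of the 6 genes (black) and the 5 nearest genes; lines join the libraries of 1 gene and imply no order. The mean of the 6 runs from -1.98 in HET replicate 2 to 1.59 in MAX_KO replicate 2, and all 5 genes lie above 0 in the 4 libraries of reduced Max.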

How the data were processed

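The authors deposited 1 table of log2 values, 1 column per library, for 15681 genes (values from -5.23 to 14.51). The submitters' processing notes name CASAVA 1.8, cutadapt, RSEM 1.2.3 and build GRCm38; no source used here gives their order, the annotation, the normalization or any filter. The deposited values equal log2 of (reads + 0.5) over an effective library size, per 1000000 reads, with reads in steps of 0.01 read (largest deviation 1.2e-08 of a read), and this relation gave the reads and RPM printed here (14880000 to 17910000 estimated reads a library). Of the genes, 15622 had a symbol in the annotation. Genes with at least 1 RPM in at least 2 libraries (12441) were tested on the deposited log2 values with limma 3.58.1 in R 4.3.3: 1 model of 4 groups, 4 residual degrees of freedom, moderated variances with a mean-variance trend, two-sided p-values adjusted by Benjamini and Hochberg over all genes tested, threshold 0.05. The script was tested on simulated data.

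Members and gene lists were chosen with earlier results of these data known. Named genes are the 6, Max, Myc, 4 PRC1.6 subunits, 5 mitotic cohesin genes, other germline genes that passed in the Max comparison, nearest neighbours and the 5 nearest profiles; other names were chosen after their values were seen. An exact permutation test between groups of 2 cannot reach 0.05 and was not run. Alternatives were other group assignments, leaving out each library, log2(RPM + 1), other filters, quantile or total scaling, blocks, no trend and a threshold of 0.01.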

Additional observations from a re-analysis of the deposited data

Results flagged for a closer look

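Whether the difference with Max loss depends on Myc was tested as the interaction, DKO minus MYC_KO less MAX_KO minus HET, on the log2 scale, and of the 6 genes and the 23 other germline genes tested, 3 had a positive and 3 a negative call by limma's adjusted p under 0.05, where 12.4% and 15.0% of all genes tested did. Stag3 had 1.33 ± 0.248 (SE, adjusted p = 0.00661). Tdrd7, a Tudor-domain protein of germ cell granules, had -1.44 ± 0.238 (adjusted p = 0.00426): it was at 15.1 and 12.2 RPM in HET and 23.3 to 35.1 in the other 6 libraries. Ythdc2 had -0.82 ± 0.139 (adjusted p = 0.00464). The Tdrd7 and Ythdc2 calls held in all 19 alternatives at the 0.05 threshold.

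The other 3 calls were less firm. Mnd1, which helps recombinases find the homologous chromosome, had 1.42 ± 0.396 (SE, limma adjusted p = 0.0315), with 6.41 and 7.34 RPM in HET, 2.35 and 3.58 in MYC_KO and 3.89 to 5.1 with reduced Max; its call was lost in 9 of 19 alternatives, among them without either HET library, either MAX_KO library, MYC_KO replicate 1 or DKO replicate 2 (adjusted p 0.0637 to 0.105) and with groups from the descriptions (0.0741). Syce2 had 0.65 ± 0.199 (adjusted p = 0.043), lost in 12 of 19, among them without either HET or MYC_KO library, MAX_KO replicate 2 or DKO replicate 1 (adjusted p 0.0655 to 0.129), among the 6 undisputed libraries (0.199) and with groups from the descriptions (0.526). Zcwpw1 had -0.71 ± 0.218 (adjusted p = 0.0431), lost in 10 of 19, among them without HET replicate 2, either MYC_KO or MAX_KO library or DKO replicate 1 (adjusted p 0.0774 to 0.123) and among the 6 undisputed libraries (0.175).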

How the results depend on the processing

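Groups of 2 libraries limit every result. With groups from the descriptions, the median difference of the 6 genes between reduced and retained Max was 1.41 in place of 2.28, also with a replicate block; the Stag3 interaction turned to -2.27 and that of Syce2 to -0.47 in both; 0 of the 6 genes were lower in MYC_KO than in HET; the interaction had 0 positive and 1 negative call; and 0 of the other germline genes were lower. DKO against MAX_KO then gave 26 genes (87 with the block) in place of 5. On the log2(RPM + 1) scale the median was 1.5. Among the 6 undisputed libraries, 1 member rose in MYC_KO, 0 other germline genes were lower, and all genes called were 1524 for reduced Max in place of 2557 and 24 for DKO against MAX_KO. The replicate numbers of the descriptions gave correlations of deviations from -0.11 to 0.26 between groups set by the descriptions. For MYC_KO and DKO of the descriptions, the deviation was a DKO library minus a MYC_KO library by title. These correlations therefore cannot decide whether the numbers pair the libraries. With a replicate block, 1 member (Sycp1, adjusted p = 0.0257) rose and 2 fell in MYC_KO, 0 other germline genes were lower, and all genes called were 1570 for reduced Max, 3 for DKO against MAX_KO and 1293 for the interaction in place of 3413. With groups from the titles, both DKO libraries have replicate number 1 in the descriptions and both MYC_KO libraries number 2. This block was therefore estimated from HET and MAX_KO only. A block by the number series of the titles (30 or 40) gave 31 genes for DKO against MAX_KO and 4 other germline genes lower. Without the trend, 1 member rose, 4 other germline genes were lower, and 1648 and 0 genes were called for reduced Max and DKO against MAX_KO. Quantile normalization left 1 other germline gene lower. At a threshold of 0.01, 0 members rose in MYC_KO, 0 other germline genes were lower, and 833, 3517, 3 and 1441 genes were called for reduced Max, MYC_KO against HET (5659), DKO against MAX_KO and the interaction. Leaving out 1 library gave 6 to 7 other germline genes higher and 0 to 2 lower, 0 to 2 members higher and 1 lower in MYC_KO, 0 in DKO against MAX_KO, 1 positive and 0 to 1 negative interaction, a median of 2.23 to 2.87, and 993 to 2317, 3390 to 5599, 3 to 24 and 1698 to 3323 genes called. Scaling to the same total moved the median of all genes to 0.15 for MYC_KO minus HET, 0.13 for MAX_KO minus HET and -0.13 for the interaction, and turned no called member. The cause of these changes was not tested.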

Other observations

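The word TCTCGCGA was noticed in the printed start regions and searched after they were seen. On either strand it was in the windows of 3 of the 5 members with a window (Stag3, Smc1b and Sycp1), in 4.84% of 62 other germline genes and in 1.13% of all 27025 genes with a window. These shares describe letters and were not tested.

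Slc25a31, a testis adenine nucleotide carrier known as a target of E2f6, did not pass the filter on low values. It was at 0 and 0.0606 RPM in HET, 0.588 and 0.695 in MYC_KO, 1.89 and 0.894 in MAX_KO and 0 and 0.329 in DKO, so its DKO libraries were below its MYC_KO libraries. Spo11, the enzyme that cuts DNA in meiosis, was at 2.43 and 4.79 RPM in HET, 1.37 and 2.46 in MYC_KO, 0.333 and 1.23 in MAX_KO and 1.06 and 1.54 in DKO. Tnp2, a spermatid DNA-packaging protein, was at 4.42 and 4.37 RPM in HET and 0.653 to 1.67 in the other 6 libraries.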
